A study of Mus musculus with 2 samples.

Results

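The genes described here are 60 genes of the cell division cycle: 21 for licensing and replication of DNA, 15 cyclins, cyclin-dependent kinases and kinase inhibitors, and 24 for the spindle and mitosis. They were chosen by name from knowledge of the cycle, with earlier results of these data known. A probe set, the group of short probes that reports 1 transcript on the array, was taken for a gene where the platform annotation gives that gene's symbol and no other. In this way 59 of the 60 genes were measured, by 136 probe sets, out of 18193 genes on the array. Ccnb1 had no such probe set and was not analysed here.

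The values came from wild-type C57Bl6 mouse embryos at embryonic stage E12.5, a stage at which blood forms in the liver while its epithelium grows. One array (GeneChip Mouse Genome 430 2.0) carried RNA of mesothelial cells, the flat epithelium covering the organ, isolated by FACS for the surface protein podoplanin (Pdpn) from livers dissociated with trypsin-EDTA. The other carried RNA of liver cells of the same strain, genotype and age, and the labels state neither how those cells were prepared nor whether Pdpn+ cells had been removed from them. The labels do not give the number of embryos behind either array, and a free-text remark that describes far earlier embryos was set aside in favour of the stated age. With 1 array per group there was no replicate and no test, and every difference below describes these arrays only.

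Cells that divide copy their DNA once and then separate the copies. Origins are licensed when the Mcm2-7 helicase is loaded by the origin recognition complex with Cdc6 and Cdt1, D-type cyclins with Cdk4 or Cdk6 open the way to S phase by inactivating the retinoblastoma proteins, and cyclins A and B with Cdk1 drive mitosis, where Aurora and Polo kinases and kinesins build and control the spindle. Many replication genes are known to be activated by E2F factors, and many mitosis genes through the cell cycle homology region (CHR), often beside CCAAT boxes bound by NF-Y. In the embryonic liver both the hepatoblasts and the erythroid precursors are known to divide rapidly.

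The promoters of the 3 groups held different letters. Promoter windows of RefSeq (GRCm38.p6), 300 bases long with 250 before the annotated start and 50 after it, were matched by symbol for 48 of the 60 genes. E2F letters were searched on both strands in the spellings TTTCCCGC, TTTCGCGC, TTTGCCGC and TTTGGCGC, of which forward and reverse matches can overlap. They were found in 8 of 17 licensing and replication genes, 2 of 11 cyclin and kinase genes and 0 of 20 spindle and mitosis genes, against 2.26% of all 32851 promoter windows and 2.60% of all 27025 genes. The CHR letters TTTGAA went the other way, with 2 of 17, 2 of 11 and 15 of 20 genes, against 17.9% of windows and 20.2% of genes. CCAAT was found in 12 of 17, 7 of 11 and 16 of 20 genes, against 37.4% of windows and 41.1% of genes. A match is a description of letters and was not tested as a binding site. The 5 stretches below are the 160 bases before the annotated start, shown 5′ to 3′ because they hold each kind of letters in turn, and they were chosen after the matches were seen. Capitals mark E2F, CHR and CCAAT letters on either strand. Cdc6 and Mcm5 stand for licensing, Cdk1 for a gene with all 3 kinds of letters, and Cdc20 and Ube2c, an activator and the ubiquitin-conjugating enzyme of the anaphase-promoting complex, for mitosis.
Cdc6, chr11:98907991-98908150, + strand: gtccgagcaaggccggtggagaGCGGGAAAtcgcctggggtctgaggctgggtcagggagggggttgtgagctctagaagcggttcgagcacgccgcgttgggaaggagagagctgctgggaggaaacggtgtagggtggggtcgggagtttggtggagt
Mcm5, chr8:75109349-75109508, + strand: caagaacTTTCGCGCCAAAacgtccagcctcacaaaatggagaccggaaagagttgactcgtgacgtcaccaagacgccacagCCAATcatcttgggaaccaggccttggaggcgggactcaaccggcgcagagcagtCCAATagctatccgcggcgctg
Cdk1, chr10:69352913-69353072, - strand: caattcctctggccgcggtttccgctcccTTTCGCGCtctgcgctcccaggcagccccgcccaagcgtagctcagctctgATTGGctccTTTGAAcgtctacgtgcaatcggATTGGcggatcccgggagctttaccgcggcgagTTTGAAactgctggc
Cdc20, chr4:118437344-118437503, - strand: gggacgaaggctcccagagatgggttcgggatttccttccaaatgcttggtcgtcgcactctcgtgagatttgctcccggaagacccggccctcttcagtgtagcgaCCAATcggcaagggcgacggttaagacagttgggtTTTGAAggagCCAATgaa
Ube2c, chr2:164769769-164769928, + strand: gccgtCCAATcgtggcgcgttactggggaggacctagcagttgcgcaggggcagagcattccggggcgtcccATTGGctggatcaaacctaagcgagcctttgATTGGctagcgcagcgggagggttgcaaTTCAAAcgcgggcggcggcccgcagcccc

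The arrays differed in overall brightness, which bears on every direction given. Over all probe sets the median intensity was 65.8 for mesothelial and 42.3 for liver cells, and the median log2 difference over all genes, mesothelial cells minus liver cells, was 0.66. Among 27 bacterial controls that have no target in the samples, the highest read 16.2 and 10.5, and the lowest value of any member, 76.3, lay above both. Control probe sets at the 3′ and 5′ ends of Actb differed 2.30-fold on the mesothelial array and 1.49-fold on the liver array, and those of Gapdh 2.15-fold and 1.95-fold. A gene was counted where its value on either array reached the median of that array (the intensity floor), and called where it was at least 2-fold higher on 1 array. All values are as deposited unless said otherwise, and centred values are those after each array was set to its own median over all probe sets, which takes 0.64 from every difference.

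All 59 measured genes lay above the floor, and 41 of them (69.5%) differed by less than 1.5-fold as deposited, where 30.0% of all genes above the floor did. As centred the shares were near each other, at 50.8% of members and 46.4% of all genes. Called on the mesothelial side were 6 of 59 (10.2%), where 45.4% of all 12018 genes above the floor were called that way, and called on the liver side was 1 of 59 (1.69%), where 3.83% of all genes were. After centring the counts were 1 of 59 (1.69%) against 23.9% of all genes on the mesothelial side, and 9 of 59 (15.3%) against 9.25% on the liver side. Either way, 7 of 59 were called as deposited against 49.2% of all genes, and 10 of 59 as centred against 33.1%. The median difference was 0.10 for licensing and replication, 0.27 for cyclins and kinases and 0.036 for spindle and mitosis, each below the 0.66 of all genes. The 8263 genes with a mean log2 intensity between the lowest and the highest of the members had a median of 0.84. In a narrower band, at the middle of the members' mean log2 intensities, 2516 genes had a median of 0.81. Genes were not matched to single members by intensity, and the part of brightness in the members' low medians was not tested. In all, 49 of the 59 members had a difference below the median of all genes.

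**Figure D1:**
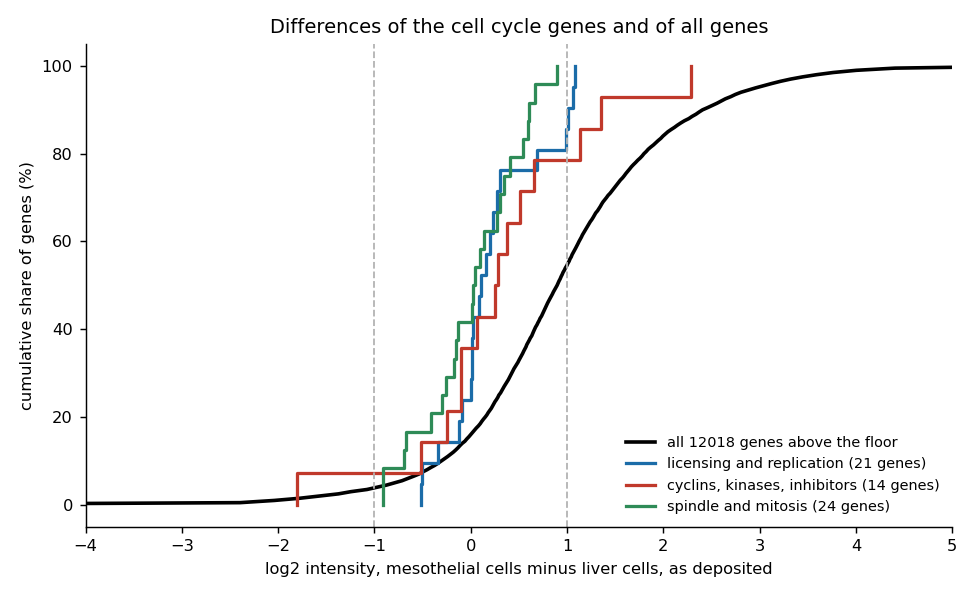
The cumulative share of genes (%) is drawn against the log2 difference, mesothelial cells minus liver cells, as deposited, for all 12018 genes above the floor (black) and for the 3 groups of members (colours), with dashed lines at 2-fold. The groups rise steeply near 0, with medians of 0.10, 0.27 and 0.036, to the left of the black curve, whose median is 0.90.

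The sign of most members depended on the scaling. Of 6 scalings tried beside the deposited one, 5 take 1 amount from every difference, between 0.019 and 1.08, so they cannot change the order of genes or of medians, nor turn a gene that is higher in liver cells. Of the 39 members higher in mesothelial cells as deposited, 35 turned sign under at least 1 scaling and 4 did not, namely Ccnd2, Cdk6, Ccnd1 and Mcm10. These counts rest on the brightest probe set of each gene. Dimmer probe sets of Cdk6 gave 0.45 and 0.46, 1 of Mcm10 gave 0.46 and 1 of Ccnd1 gave 1.06. Each of these is below the largest amount taken, 1.08, while every probe set of Ccnd2 gave 1.27 or more. As centred, the group medians were -0.53, -0.37 and -0.60, and that of all genes was 0.027. Quantile normalization, which alone could have changed their order, gave -0.53, -0.57 and -0.70, and 0.075 for all genes. In samples of mixed cells, fewer cells of a type and less RNA per cell cannot be told apart.

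**Figure D2:**
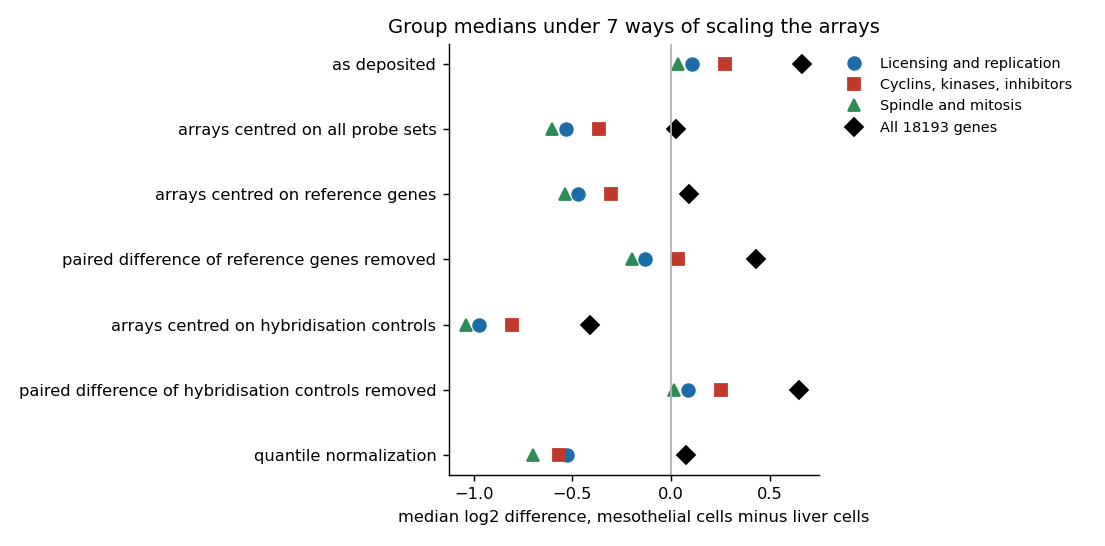
Median log2 difference (horizontal axis, mesothelial cells minus liver cells) of the 3 groups (circles, squares, triangles) and of all 18193 genes (diamonds) under 7 ways of scaling the 2 arrays, 1 line each. On 6 of the lines the distances between symbols are fixed by the scaling, and the side of 0 on which the groups fall depends on the scaling.

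Mcm10, Cdt1 and Mcm2 had the largest differences of the replication group, towards mesothelial cells, and Gmnn and Orc1 the lowest. Of the 21 genes, 3 were called on the mesothelial side, 0 on the liver side and 16 differed by less than 1.5-fold. Over all genes above the floor these shares were 45.4%, 3.83% and 30.0%. As deposited 5 of the 21 were higher in liver cells, and of the other 16 all but Mcm10 turned sign under other scalings. Mcm10, which helps turn the loaded helicase into a running fork, read 911.6 on the mesothelial array and 431.7 on the liver array, 2.11-fold higher. Its difference was 1.08 (SD of the log2 difference 0.60 over 3 probe sets, a form used for the other genes too), and it fell to 0.0028 when arrays were centred on hybridisation controls. Cdt1, the loader that brings the helicase to origins, read 4246 and 2031, 2.09-fold higher, a sign that turned under that centring. A dimmer probe set for Cdt1 gave 0.89, while the remaining one read 7.0 and 8.3, below the highest controls.

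By their brightest probe sets, the subunits of the Mcm2-7 helicase had unlike differences, but probe sets of the same subunit disagreed too. Mcm2 read 2259 on the mesothelial array and 1121 on the liver array, a difference of 1.01, but its other probe set read 1145 and 1269, a difference of -0.15. Mcm5 read 3167 and 1593, a difference of 0.99 that turned to -0.084 under the hybridisation control centring. A second Mcm5 probe set read 1529 and 1411.5, a difference of 0.12. Mcm4 read 3395 and 2818, and Mcm3 read 1694 and 1684.5. Mcm7 read 4669 and 4658, and Mcm6 read 2002 and 2134. A second Mcm6 probe set read 2582 and 1350, a difference of 0.94. By brightest probe set the differences thus ran from -0.092 for Mcm6 to 1.01 for Mcm2. The SD between probe sets was 0.82 for Mcm2, 0.73 for Mcm3 and 0.64 for Mcm6. Probe sets of the same subunit thus spread about as widely as the subunits, which were not shown to differ from each other. None of the 6 was called after centring, where 23.9% of all genes were on the mesothelial side and 9.25% on the liver side.

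Of the remaining licensing genes, Gmnn, Orc1 and Gins2 read lower in mesothelial cells and Gins1 and Cdc6 higher. Geminin (Gmnn), which binds Cdt1 and blocks a second round of licensing, read 1886.5 and 2689, a difference of -0.51, and -1.15 as centred. Orc1, the largest subunit of the origin recognition complex, read 219.1 and 311.2, also -0.51. Gins2, a part of the replicative helicase, read 638.9 and 807.3, a difference of -0.34, while its partner Gins1 read 1741 and 1488. Cdc6, with Cdt1 a loader of the helicase, read 1331.5 and 1079. Gins1 and Cdc6 turned sign under other scalings.

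Of the fork proteins and nucleotide enzymes, Prim1 differed most. Pcna, the sliding clamp, read 7588 on the mesothelial array and 8273 on the liver array. Prim1, the primase subunit that starts each strand, read 6248 and 3885, 1.61-fold higher, with a difference of 0.69 that turned sign under another scaling. Fen1, the flap nuclease, read 8907 and 7754, and the catalytic polymerase subunit Pola1 read 519.0 and 482.6. A second probe set of Pola1 read 8.4 and 49.6, the former below the highest control. The ribonucleotide reductase subunits Rrm1 and Rrm2 differed by 0.0080 and 0.16, thymidine kinase (Tk1) by 0.028 and thymidylate synthase (Tyms) by 0.088, and each of these 4 turned sign under other scalings. The other probe sets of Rrm2 gave -0.72 and -1.71, the former at 2642 and 4346. Of the other Tyms probe sets, 1 read 5.8 in mesothelial cells, below the highest control, so no difference is given for it.

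**Figure D3:**
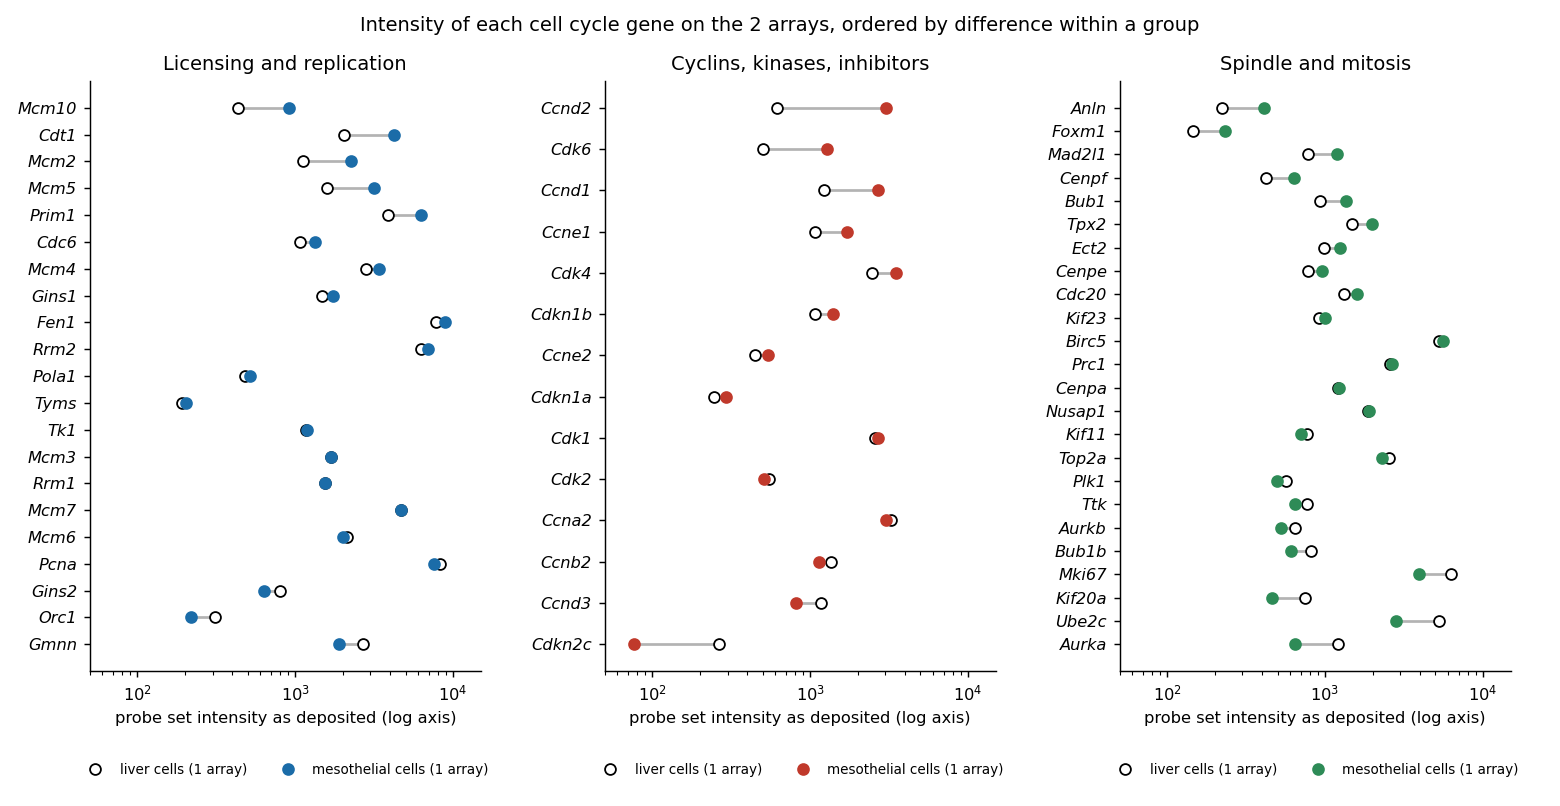
Probe set intensity as deposited (log axis) of each measured member in mesothelial cells (filled) and liver cells (open), 1 array each, with genes ordered by their difference within the 3 groups and a grey line joining the 2 values. The lines are short for the 41 genes that differ by less than 1.5-fold, and the longest lines are those of Ccnd2, Cdkn2c and Cdk6.

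Ccnd2 had the largest difference of all members, and Cdkn2c the next in size. D-type cyclins couple growth signals to the cycle by activating Cdk4 and Cdk6, and the 3 of them did not go the same way. Cyclin D2 (Ccnd2) read 3015 on the mesothelial array and 616.3 on the liver array, 4.89-fold higher. Its 7 probe sets gave differences from 1.27 to 2.29, with an SD of 0.33 and a median of 1.87, and it was the 1 member called on the mesothelial side under each of the 7 scalings, at 1.21 or more. Cyclin D1 (Ccnd1) read 2684 and 1219, 2.20-fold higher, and its 3 probe sets gave 1.06, 1.14 and 1.25. Its difference was 0.50 as centred and 0.063 under the hybridisation control centring. Cyclin D3 (Ccnd3) read 819.0 and 1169, 1.43-fold higher in liver cells, a difference of -0.51 that reached -1.15 as centred. Its other probe sets read under 46 on both arrays.

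The kinase partners of D-type cyclins, Cdk4 and Cdk6, both read higher in mesothelial cells as deposited. Cdk6 read 1274 on the mesothelial array and 500.2 on the liver array, 2.55-fold higher, but the other probe sets gave 0.45 and 0.46, so that the SD was 0.52 and the median fell below 2-fold. Cdk4 read 3516 and 2459, a difference of 0.52 that turned to -0.12 as centred (SD 0.076 over 3 probe sets). The kinases of S phase and mitosis differed by 0.10 or less in size. Cdk2 read 513.2 and 548.8, and Cdk1 read 2676 and 2565. Of the 14 measured genes of this group, 3 were called on the mesothelial side, 1 on the liver side, and 9 differed by less than 1.5-fold. The shares of all genes above the floor were 45.4%, 3.83% and 30.0%.

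As deposited, E-type cyclins read higher in mesothelial cells, and Ccna2 and Ccnb2 lower. Cyclin E1 (Ccne1), which drives entry to S phase with Cdk2, read 1702 and 1076, a difference of 0.66. A second Ccne1 probe set of similar brightness read 1247 and 1200, a difference of 0.056. Ccne2 read 543.2 and 446.1, and both genes turned sign under other scalings. Cyclin A2 (Ccna2) read 3019 and 3230.0, a difference of -0.097, and cyclin B2 (Ccnb2) read 1145 and 1362, a difference of -0.25.

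Among the inhibitors, Cdkn2c stood apart from the others. It encodes p18, which binds Cdk4 and Cdk6 and keeps D-type cyclins from them, and it read 76.3 on the mesothelial array and 266.8 on the liver array, 3.50-fold higher in liver cells. The difference of -1.81 came from 1 probe set and reached -2.44 as centred, and no other member was called on the liver side as deposited. Cdkn1a (p21), a target of p53, read 295.3 and 247.3, and its probe sets gave 0.26 and -0.36. Cdkn1b (p27), which holds cells in G1, read 1404 and 1081, a difference of 0.38, but its other probe set read 182.4 and 443.3, a difference of -1.28. The directions of Cdkn1a and Cdkn1b were thus set by the choice of probe set as well as by the scaling.

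**Figure D4:**
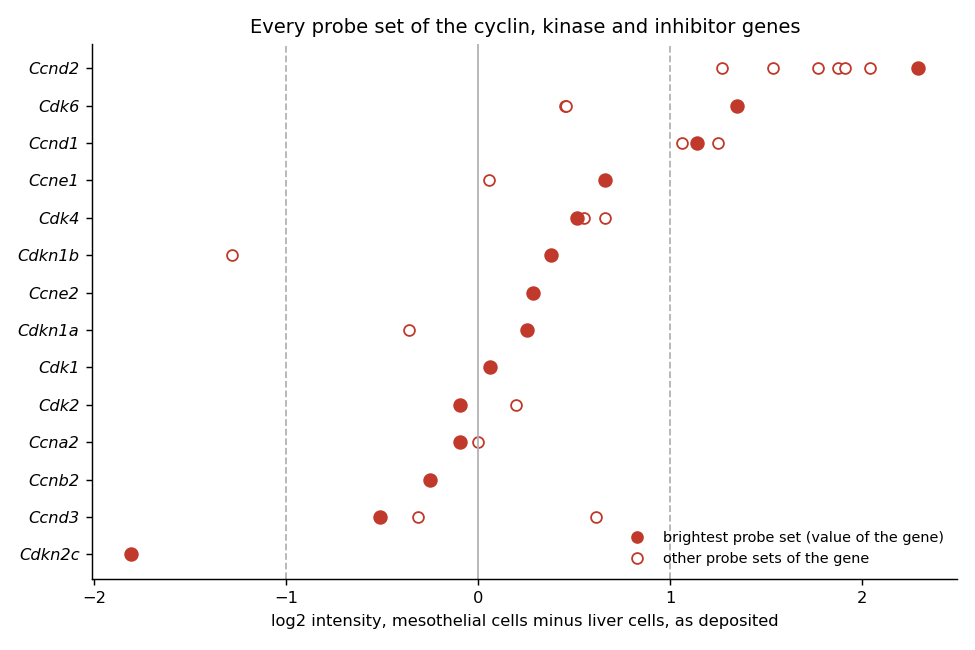
Log2 difference (mesothelial cells minus liver cells, as deposited) of every probe set of the 14 measured cyclin, kinase and inhibitor genes, with the brightest probe set filled and the others open, and dashed lines at 2-fold. All 7 probe sets of Ccnd2 and all 3 of Ccnd1 lie to the right of the dashed line, while those of Cdkn1b lie on both sides of 0.

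No spindle or mitosis gene was called on either side as deposited. Of all genes above the floor, 45.4% were called on the mesothelial side and 3.83% on the liver side. The most negative differences were those of Aurka, Ube2c, Kif20a and Mki67. Of the 24 genes, 16 differed by less than 1.5-fold, where 30.0% of all genes above the floor did. As deposited 10 of the 24 were higher in liver cells, and the other 14 turned sign under another scaling. Aurora A (Aurka), the kinase of centrosomes and spindle poles, read 642.4 on the mesothelial array and 1209 on the liver array, a difference of -0.91 (SD 0.42 over 2 probe sets). The other Aurka probe set, which enters that SD, read 8.1 and 10.1, below the highest controls. Ube2c read 2813.5 and 5275, also -0.91, from 1 probe set. Kif20a, a kinesin of the central spindle, read 461.5 and 746.1, a difference of -0.69. Mki67, the widely used proliferation marker that coats mitotic chromosomes, read 3919 and 6263, a difference of -0.68. As centred, 5 of the 24 were called on the liver side and 0 on the mesothelial side, against 9.25% and 23.9% of all genes. The 5 were these 4 and the checkpoint kinase gene Bub1b, which read 608.9 and 813.3.

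The most positive differences were under 2-fold and turned sign under another scaling. Anillin (Anln), which organises the contractile ring of cytokinesis, read 410.5 on the mesothelial array and 221.4 on the liver array, a difference of 0.89 (SD 0.23 over 2 probe sets). Foxm1, a transcription factor of mitosis genes, read 232.7 and 146.0, a difference of 0.67 (SD 0.56 over 4 probe sets). The dimmest of these Foxm1 probe sets read 5.5 and 7.8, below the highest controls. Mad2l1, a spindle checkpoint protein, read 1189 and 781.7, a difference of 0.60. Cenpf, a kinetochore protein, also differed by 0.60, with a median of -0.29 over its 3 probe sets. Bub1, a checkpoint kinase, read 1354 and 930.8, a difference of 0.54, and its dimmer probe set gave 1.74.

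The remaining 14 mitosis genes lay between. The mitotic kinase genes Plk1, Ttk and Aurkb differed by -0.17, -0.25 and -0.30. The kinesin genes Kif11 and Kif23 differed by -0.13 and 0.14, and Top2a, which untangles DNA, by -0.15. Cdc20 differed by 0.28, survivin (Birc5) by 0.098, Tpx2, an activator of Aurora A, by 0.41, and Ect2, an activator of cytokinesis, by 0.35. The bundling proteins Prc1 and Nusap1 differed by 0.046 and 0.015, and the centromere proteins Cenpa and Cenpe by 0.026 and 0.31. Several of these signs depended on the probe set. Other probe sets above the floor gave -0.89 and -0.052 for Cdc20, -0.91 for Kif23 and -0.81 for Cenpe. Those of Tpx2, Prc1 and Nusap1 gave -0.056, -0.20 and -0.56, and that of Aurkb gave 0.085. Those of Kif11, Ttk and Top2a kept the sign. Cenpa had the widest spread of the group, since its 3 probe sets ran from -0.63 to 1.99.

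Probe sets of the same gene limited what could be read from a single member. Of the 59 members, 44 had several probe sets, and in 27 of these the probe sets lay on both sides of 0, in 11 all were higher in mesothelial cells and in 6 all were higher in liver cells. These counts took in probe sets below the floor, such as that of Cdt1 at 7.0 and 8.3. Pooled over these members, again with dim probe sets included, probe sets of 1 gene differed with an SD of 0.62. Over the 5323 genes with several probe sets above the floor, and with only those probe sets, the SD was 0.70. The 2 SDs are thus not like measures, and neither holds variation between embryos, sorts or amplifications. In 23 of the 44 the brightest probe set, used as the value of the gene, had the highest difference, and in 11 it had the lowest. With the median over probe sets instead, the group medians became -0.056, 0.056 and -0.16. The members called were then Ccnd2, Ccnd1 and Bub1 on the mesothelial side and Cdkn2c and Pola1 on the liver side. The Pola1 call drew on a probe set at 8.4 and 49.6, the former below the highest control. The Bub1 call drew on a probe set at 91.5 and 27.4, the latter below the liver median of 42.3. The steeper 3′ to 5′ ratio of Actb on the mesothelial array was measured beside these disagreements, and its part in them was not tested.

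The differences of members were also set beside their promoter letters. The 19 measured members with CHR letters had a median difference of 0.026 and the 28 without them 0.13. The 10 with E2F letters had a median of 0.035 and the 37 without them 0.098. For CCAAT the values were 0.0081 for 34 members and 0.30 for 13, the latter running from 0.015 to 1.35. These medians were all below the 0.66 of all genes, and genes with and without letters overlapped for each of the 3 motifs.

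Other genes of the same steps had slightly higher medians than the members and included larger differences among regulators. Their lists were written by name, with earlier results of these data known. Of 39 other replication genes above the floor, 5 were called on the mesothelial side and 0 on the liver side, with a median of 0.30, where 45.4% and 3.83% of all genes were. Pold1, the catalytic subunit of DNA polymerase delta, read 3056.5 on the mesothelial array and 844.5 on the liver array, 3.62-fold higher (SD 0.74 over 2 probe sets). Pole, that of polymerase epsilon, read 1139 and 474.7, 2.40-fold higher. The lowest were Orc5, at 360.3 and 690.2, and the clamp loader gene Rfc3, at 387.6 and 599.9. Of 56 other mitosis genes above the floor, 11 were called on the mesothelial side and 0 on the liver side, with a median of 0.33, and after centring the counts were 0 and 6, against 23.9% and 9.25% of all genes. Kif20b, a kinesin of cytokinesis, and Smc1a, a cohesin subunit, differed by 1.43 and 1.42, but the median over the 3 probe sets of Smc1a was -0.012. Ncapd3, a condensin subunit, and Tacc3, a spindle protein, differed by -0.70 and -0.69. Of the 3 probe sets of Tacc3, however, 2 were higher in mesothelial cells, and their median was 0.18. The 3 of Ncapd3 ran from -0.70 to 0.35, with a median of -0.31.

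The regulators reached further in both directions than the members or the other 2 lists. Of 38 above the floor, 8 were called on the mesothelial side and 5 on the liver side, with a median of 0.35, where 45.4% and 3.83% of all genes were called. After centring the counts were 3 and 10, against 23.9% and 9.25% of all genes, so that the share on the mesothelial side was below that of all genes both times. Cdkn1c (p57), an imprinted inhibitor of G1 kinases, read 3349 on the mesothelial array and 520.8 on the liver array, 6.43-fold higher from 1 probe set. E2f5, an E2F factor that works with the retinoblastoma relatives, read 293.2 and 90.3, 3.25-fold higher (SD 0.96 over 3 probe sets). E2f2, an activating E2F factor, went the other way and read 192.7 and 1461, 7.58-fold higher in liver cells, and its probe sets gave -2.92 and -2.74. Gadd45a, a growth arrest and DNA damage gene, read 720.6 and 4126.5, 5.73-fold higher in liver cells. The other 3 called on the liver side, named after their values were seen, were the phosphatase gene Cdc25b (-1.69), Cdkn2d, which encodes the p19 inhibitor of Cdk4 and Cdk6 (-1.26), and E2f4 (-1.04). E2f1 and E2f3, also named after their values were seen, differed by -0.73 and 0.99, of which E2f3 turned sign among the scalings. Cdkn1c and E2f5 kept their sign under all 7 scalings.

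**Figure D5:**
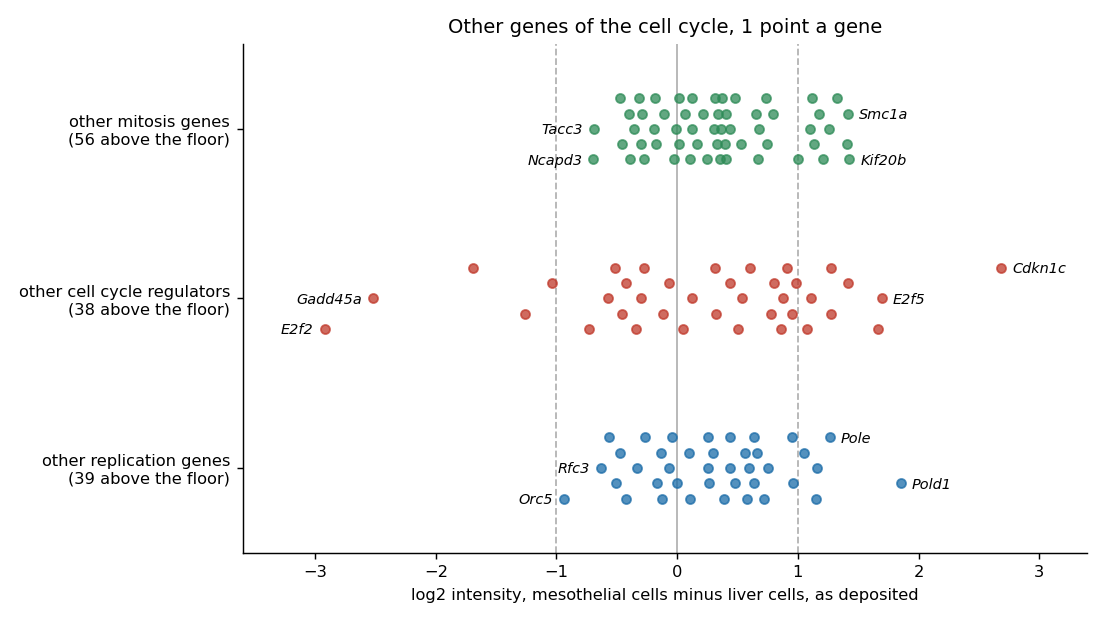
Log2 difference (mesothelial cells minus liver cells, as deposited) of other replication genes, regulators and mitosis genes above the floor, 1 point a gene, spread vertically for legibility, with dashed lines at 2-fold and the 2 furthest genes on each side named. The regulators reach from -2.92 for E2f2 to 2.68 for Cdkn1c, further than either other list.

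Markers of several cell types differed between the samples beside these genes. Pdpn, the gene of the sort, read 3877 in mesothelial cells, 38.8-fold above its value in liver cells, and 12 of 12 mesothelial markers above the floor were called on the mesothelial side. Of 13 erythroid markers, 7 were called on the liver side and 0 on the mesothelial side, with summed intensities of 32671 for mesothelial and 63921 for liver cells. Their median difference was -1.30, and they ran from -4.19 for Epb42 to 0.29 for Gata1. Klf1, a defining erythroid factor, was among those that differed less and read 2494 against 2899. On the mesothelial side were 10 of 10 megakaryocyte markers, with summed intensities of 26411.5 and 7125. So were 8 of 11 striated muscle markers, with 1 on the liver side and summed intensities of 4593 and 1187. Of stellate markers 9 of 9 and of macrophage markers 6 of 8 were called on the mesothelial side, while 6 of 9 granulocyte markers were called on the liver side and 1 on the mesothelial side. Called on the mesothelial side were 4 of 10 hepatoblast (40.0%) and 4 of 9 endothelial markers (44.4%), near the 45.4% of all genes, and after centring 0 and 1 were. The part of these cell types in the differences of Ccnd2, Cdkn2c, E2f2, Cdkn1c and the other cycle genes was not tested.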

How the data were processed

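The deposited intensities, 1 per probe set, are linear and not log values, as their range shows. Per the submitters' processing notes, RMA and Partek were used, with version, role and order not given in the sources used here. Per the labels, 20 ng of total RNA was amplified and labelled with the NuGEN Ovation systems, which can alter ratios of transcripts. Depth does not apply to arrays, and their number, 1 per group, limits the precision.

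Log2 of the intensities was taken here. Of 45101 probe sets, 64 were controls, 34945 had 1 gene symbol in the platform annotation, 932 several and 9160 none. Each gene was given by its brightest probe set (mean log2 of the 2 arrays). The floor was the median of all probe sets of an array. Genes were named by rule: in each group the 5 largest and 3 lowest differences, all D-type cyclins, Cdk genes and inhibitors, and in each other list the 2 furthest genes in each direction and Cdkn1c; further members are given so that all are accounted for. Members, lists and promoter motifs were chosen with earlier results of these data known. Of the list symbols, 3 older ones were updated through RefSeq. Scripts (Python 3.11.15, pandas 2.3.3, numpy 2.4.6) were tested on simulated data. Alternatives were 6 further scalings, taking the median of a gene's probe sets, dropping those ending in _x_at or _s_at, low values set to the bacterial controls, other floors and a 4-fold threshold.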

Additional observations from a re-analysis of the deposited data

How the results depend on the processing

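No paired analysis was possible because each group had 1 array, and for the same reason no replicate could be left out. Counts below are given for mesothelial and then liver cells, and medians for licensing, cyclins and mitosis. Against 6 and 1 members called and medians of 0.10, 0.27 and 0.036, centring on all probe sets gave 1 and 9, with -0.53, -0.37 and -0.60. Of all genes, 45.4% and 3.83% were called as deposited, and 23.9% and 9.25% after this centring. For the other settings that share was not taken, so the counts there cannot be read alone. Centring on 16 reference genes gave 1 and 8, with -0.47, -0.30 and -0.54. Removing their median paired difference gave 2 and 3, with -0.13, 0.034 and -0.20. Centring on 18 hybridisation controls gave 1 and 28, with -0.97, -0.81 and -1.04. Quantile normalization gave 1 and 14, with -0.53, -0.57 and -0.70. The median of all genes above the floor, 0.90 as deposited, moved too, to 0.26, 0.32, 0.66, -0.18 and 0.12 under these scalings in turn. The median over probe sets gave 3 and 2, with -0.056, 0.056 and -0.16. Without probe sets ending in _x_at or _s_at, which leaves 58 members, the cyclin median was 0.16, and a 4-fold threshold called 1 and 0. Other replication genes, 5 and 0 as deposited, were 1 and 6, 1 and 5, 2 and 1, 0 and 14, 1 and 8, and 3 and 0 under the first 6 of these in turn. Regulators, 8 and 5, were 3 and 10, 3 and 9, 6 and 5, 1 and 16, 1 and 12, and 6 and 5. Other mitosis genes, 11 and 0, were 0 and 6, 0 and 4, 5 and 0, 0 and 20, 0 and 12, and 4 and 0. Mcm2 and Cdt1 reversed to -0.065 and -0.012 when centred on hybridisation controls, and Mcm2 to -0.15 without probe sets ending in _s_at. Each scaling but quantile normalization takes 1 amount from every difference, and for the other alternatives the cause was not tested. Removing the median paired difference of the hybridisation controls, low values at control level, and other floors left the members' counts within 1.5 times and the medians within 0.1. The number of arrays limits all of these.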

Other observations

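Probe sets with several gene symbols entered no comparison, and 2 of them name a member. The probe set shared by Tyms and its pseudogene Tyms-ps read 2630.0 on the mesothelial array and 2540 on the liver array, a difference of 0.050, beside the 0.088 of the probe set used for Tyms, which was dimmer at 203.4 and 191.4. The probe set shared by Foxm1, Pebp1 and Tex52 read 1002.5 and 466.0, a difference of 1.11, and cannot be assigned to 1 of the 3 genes.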
